A study of Mus musculus with 4 samples.

Results

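The genes described here are 9 genes of mast cells: the chymases Mcpt1, Mcpt2, Mcpt4 and Cma1, the tryptase Tpsb2, carboxypeptidase A3 (Cpa3), the receptor tyrosine kinase Kit, and 2 subunits of the high-affinity IgE receptor, Fcer1a and Ms4a2. They were taken by symbol from the probe sets that the platform annotation gives to 1 gene, with the brightest probe set standing for each gene. All 9 were found, each with 1 probe set, among 22180 genes in all. Gene expression was measured with Affymetrix arrays in the gastric corpus, the acid-secreting part of the stomach, of adult mice 8 to 10 weeks old. The genes were chosen by their levels, KO minus WT differences and metformin responses on these same arrays, so every value below is a description. Each of the 4 groups had 1 array, which leaves every difference without replicates. The labels do not give the number of mice behind an array.

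Wild-type mice (WT) were C57BL/6. The knockout mice (KO, labelled AmpkKO) were Atp4b-cre; Prkaa1fl/fl; Prkaa2fl/fl, and so lacked both catalytic subunits of the energy sensor AMPK where Cre was made. Atp4b encodes the beta subunit of the gastric proton pump, and its promoter directs Cre to parietal cells, so mast cells were not the targeted cells. Cre came from a B6/FVB line and the floxed alleles from B6, which gave the KO mice a mixed background. Genotype and strain background differed together and cannot be told apart in any KO against WT value below. Within each genotype, mice were injected intraperitoneally each day for 14 days, with saline (vehicle) or with 300 mg/kg metformin. Littermate controls were used where possible, per the labels.

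Mast cells are long-lived tissue cells of the blood lineage that store proteases, histamine and proteoglycan in granules and release them when IgE bound to its receptor meets antigen. Mouse mast cells fall into a mucosal kind, which lies in and under epithelium and makes the chymases Mcpt1 and Mcpt2, and a connective tissue kind, which lies in submucosa, muscle and serosa and makes Mcpt4, Cma1, Tpsb2 and Cpa3. Kit, the receptor for stem cell factor, is needed for mast cells to survive, but it is also made by interstitial cells of Cajal, the pacemaker cells of gut muscle. In RNA from whole tissue, fewer cells of a type and less RNA per cell cannot be told apart.

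The values are log2 expression, and a difference of 1 is 2-fold. As a guide to the level of probe sets with no transcript, the 1081 olfactory receptor genes were read on each array, since these genes are not known for expression in stomach. Their 95th percentile was 4.08 in WT with vehicle, 4.31 in WT with metformin, 4.48 in KO with vehicle and 4.27 in KO with metformin. This level is called the olfactory level below, and it was chosen after the data were seen. Where the dimmer value of a pair lay under it, the fold is a lower bound computed from it. Of the 9 genes, 5 were above the olfactory level on all 4 arrays and 2, Mcpt4 and Fcer1a, on none. The vehicle arrays of WT and KO were the least alike. Their correlation over genes was 0.966, against 0.987 between the metformin arrays, and 7.24% of genes differed by 2-fold or more between genotypes under vehicle against 0.974% under metformin. The proton pump genes Atp4a and Atp4b lay between 12.80 and 13.44 on all arrays, as befits corpus. The targeted gene Prkaa1 had KO minus WT differences of -1.28 under vehicle and -0.24 under metformin, and Prkaa2 of -1.71 and -0.50.

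Upstream sequences are shown for Cpa3 and for the chymase genes with a sequence available, which leaves out Mcpt2. They are shown because Mcpt1, which was high in KO, and Mcpt4, which was under the olfactory level on every array, have much of this sequence in common. The 250 bases before the RefSeq start site (GRCm38.p6) are shown for 4 genes, 5′ to 3′ on the strand of the gene. Capitals mark a GATA spelling, the motif read by Gata1 and Gata2, which drive mast cell genes. The spellings searched were AGATAA or AGATAG, and with T as first base TGATAA or TGATAG, on both strands. Mcpt1 lies at chr14:56017714-56017963 (plus strand), Mcpt4 at chr14:56062311-56062560 (minus strand), Cma1 at chr14:55944676-55944925 (minus strand) and Cpa3 at chr3:20242182-20242431 (minus strand).
Mcpt1: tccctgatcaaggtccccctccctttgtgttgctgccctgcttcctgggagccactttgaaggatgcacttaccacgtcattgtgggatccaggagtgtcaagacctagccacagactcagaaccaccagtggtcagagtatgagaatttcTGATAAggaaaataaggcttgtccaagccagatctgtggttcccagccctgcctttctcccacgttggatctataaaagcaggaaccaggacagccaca
Mcpt4: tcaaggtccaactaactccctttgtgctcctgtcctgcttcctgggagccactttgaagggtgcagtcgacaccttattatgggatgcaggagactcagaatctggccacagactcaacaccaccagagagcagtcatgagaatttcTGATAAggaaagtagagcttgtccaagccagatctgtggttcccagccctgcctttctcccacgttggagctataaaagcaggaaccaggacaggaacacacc
Cma1: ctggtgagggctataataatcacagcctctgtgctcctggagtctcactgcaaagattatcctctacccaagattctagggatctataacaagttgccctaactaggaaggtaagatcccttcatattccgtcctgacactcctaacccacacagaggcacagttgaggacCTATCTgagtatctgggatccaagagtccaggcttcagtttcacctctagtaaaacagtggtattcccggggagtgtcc
Cpa3: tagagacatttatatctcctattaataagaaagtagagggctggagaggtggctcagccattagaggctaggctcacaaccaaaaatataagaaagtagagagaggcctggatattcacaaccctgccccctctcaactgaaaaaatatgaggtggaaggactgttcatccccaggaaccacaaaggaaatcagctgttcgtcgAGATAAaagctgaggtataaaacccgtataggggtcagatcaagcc

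Over these 250 bases, Mcpt1 and Mcpt4 were identical at 213 of 260 aligned positions (81.9%). Each carried TGATAA, beginning 99 bases before the start in Mcpt1 and 103 bases before it in Mcpt4, and past this motif the longest unbroken identity of the pair was 53 bases. Mcpt1 and Cma1 were identical at 51.3% of aligned positions. Promoter entries matched 7 of the 9 genes, and 6 of these held at least 1 GATA spelling, as did 26.5% of all 32851 promoters of this length. Mcpt2 and Tpsb2 had no entry, so their upstream sequences were not compared with that of Mcpt1. Ms4a2 held 3, beginning 224, 37 and 11 bases before its start, and Fcer1a held 1. Neither of the Kit entries held any. An E-box spelling that Mitf can read (CACGTG or CACATG, both strands) was found in 1 of the 7, Fcer1a, and in 17.6% of all promoters. A match describes letters and not binding.

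The mucosal chymase genes Mcpt1 and Mcpt2 were far higher on both KO arrays than on both WT arrays. Mcpt1, whose product is released by mucosal mast cells in worm infection, had log2 values of 2.88 in WT with vehicle, 3.38 in WT with metformin, 6.37 in KO with vehicle and 6.51 in KO with metformin. Both WT values lay under the olfactory level and both KO values at least 1.89 above it. KO was at least 4.89-fold higher than WT under vehicle and at least 4.58-fold higher under metformin. On the log2 scale these bounds are 2.29 and 2.19, while the KO arrays differed by 0.13.

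Mcpt2, which encodes the second chymase-family protease of mucosal mast cells, had 3.86 in WT with vehicle, 4.98 in WT with metformin, 7.25 in KO with vehicle and 6.95 in KO with metformin. The WT vehicle value alone lay under the olfactory level. KO was at least 8.98-fold higher under vehicle and 3.89-fold higher under metformin (1.96 on the log2 scale). The lower metformin figure goes with the higher WT metformin value, since the KO arrays differed by 0.30. Mcpt1 and Mcpt2 had the same order of genotypes. The root mean square difference between their profiles, each centred on its own mean, was 0.42.

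**Figure D1:**
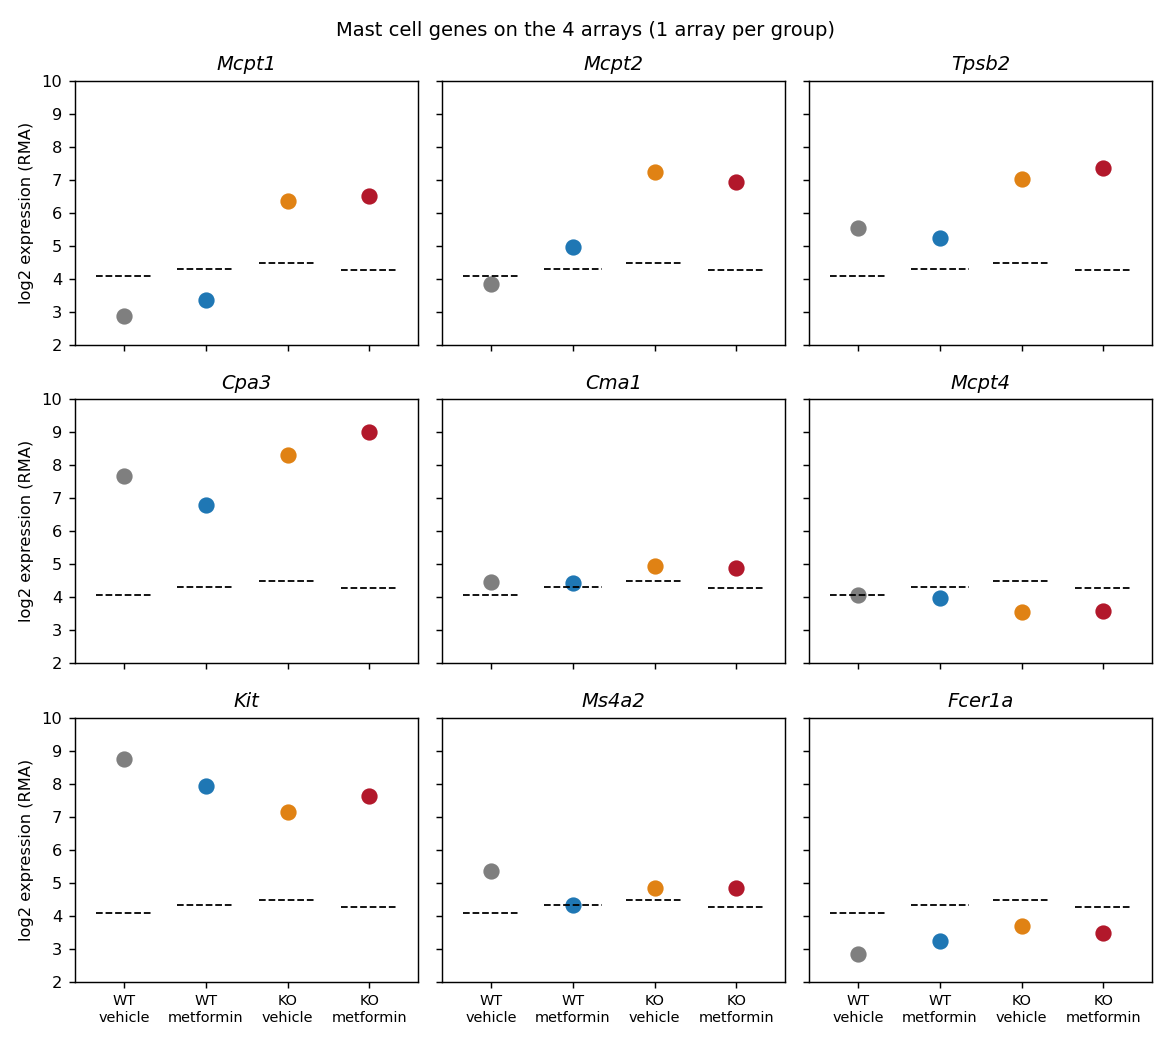
Log2 expression (vertical axis) of the 9 mast cell genes on the 4 arrays (horizontal axis, 1 point per array), with dashes at the 95th percentile of the olfactory receptor genes of that array. Mcpt1, Mcpt2 and Tpsb2 are higher on both KO arrays than on both WT arrays by at least 1.5, Mcpt4 and Fcer1a stay under the dashes on every array, and Kit is highest on the WT vehicle array at 8.75.

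Tpsb2 and Cpa3, granule proteases with transcripts in many mast cells, were also higher in KO, Cpa3 mainly under metformin. Tpsb2, the trypsin-like protease called mMCP-6, had 5.54 in WT with vehicle, 5.25 in WT with metformin, 7.05 in KO with vehicle and 7.35 in KO with metformin. All 4 values were above the olfactory level and the genotypes did not overlap. KO was 2.84-fold higher under vehicle (1.5) and 4.29-fold higher under metformin (2.10), while the arrays of each genotype differed by 0.29 and 0.30. Cpa3, a zinc carboxypeptidase that trims peptides in the granule, had 7.69 in WT with vehicle, 6.81 in WT with metformin, 8.32 in KO with vehicle and 9.02 in KO with metformin. Its genotypes did not overlap either, but the gap from the highest WT to the lowest KO value was 0.63, smaller than the 0.88 between the WT arrays. KO was 1.55-fold higher under vehicle and 4.62-fold higher under metformin (2.21).

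The other tryptase gene of the cluster, Tpsab1 (mMCP-7), lies beside Tpsb2 and had the same order of genotypes. RefSeq classes Tpsab1 as a transcribed pseudogene on the C57BL/6J assembly. Its values were 3.82 in WT with vehicle, 3.81 in WT with metformin, 4.67 in KO with vehicle and 5.47 in KO with metformin, above the olfactory level on the KO arrays alone. KO was higher by at least 0.59 under vehicle and at least 1.16 under metformin. The next genes along chromosome 17 are Tpsg1, a transmembrane tryptase, and the calcium channel gene Cacna1h. Tpsg1 was under the olfactory level on every array, and Cacna1h differed between genotypes by 0.22 or less in size in both comparisons. Tpsb2 and Tpsab1 are close relatives, as are the chymases, and probe sequences were not used here, so signal shared between relatives was not tested.

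Of the chymases of connective tissue mast cells, Mcpt4 was under the olfactory level on every array and Cma1 was short of 2-fold between genotypes. Tpsb2 and Cpa3, which that kind of mast cell also makes, were higher in KO as given above. Mcpt4, the mouse chymase closest to the human enzyme in what it cuts, had 4.06 in WT with vehicle, 3.97 in WT with metformin, 3.55 in KO with vehicle and 3.6 in KO with metformin. All 4 values lay under the olfactory level, so no fold is given and their order is not read. Among the upstream sequences shown above, which leave out Mcpt2, that of Mcpt4 is most like that of Mcpt1, with the same TGATAA. Mcpt4 was not detected above the olfactory level on the KO arrays, where Mcpt1 was. Cma1 (mMCP-5), an elastase-like protease stored with Cpa3, had 4.47 in WT with vehicle, 4.44 in WT with metformin, 4.94 in KO with vehicle and 4.89 in KO with metformin. These values were 0.12 to 0.62 above the olfactory level, and the KO minus WT difference was 0.47 under vehicle and 0.45 under metformin, short of 2-fold in both.

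Mcpt1, Mcpt2, Mcpt4 and Cma1 belong to a cluster on chromosome 14 that continues into the neutrophil protease cathepsin G and the granzymes of killer cells. From Cma1 to Gzmb, RefSeq lists 17 protein-coding genes and transcribed pseudogenes, of which 16 were measured. Mcpt1 and Mcpt2 are neighbours, and they were the 2 genes of the cluster that were at least 2-fold higher in KO under metformin. Under vehicle, Gzmn (1.27) joined them, from 3.14 on the WT vehicle array to 4.41 on the KO vehicle array, which is under the olfactory level of 4.48. On one side of the pair, Gm5801 differed by -0.65 and 0.56 under vehicle and metformin. On the other side, Mcpt9 was under the olfactory level on every array (2.59 to 3.47), so its differences are not read. The other 14 genes lay between -0.65 and 1.27 under vehicle and between -0.37 and 0.95 under metformin. Apart from Cma1 and Gm5801, they were under the olfactory level on every array, so these values do not show that they were unchanged.

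**Figure D2:**
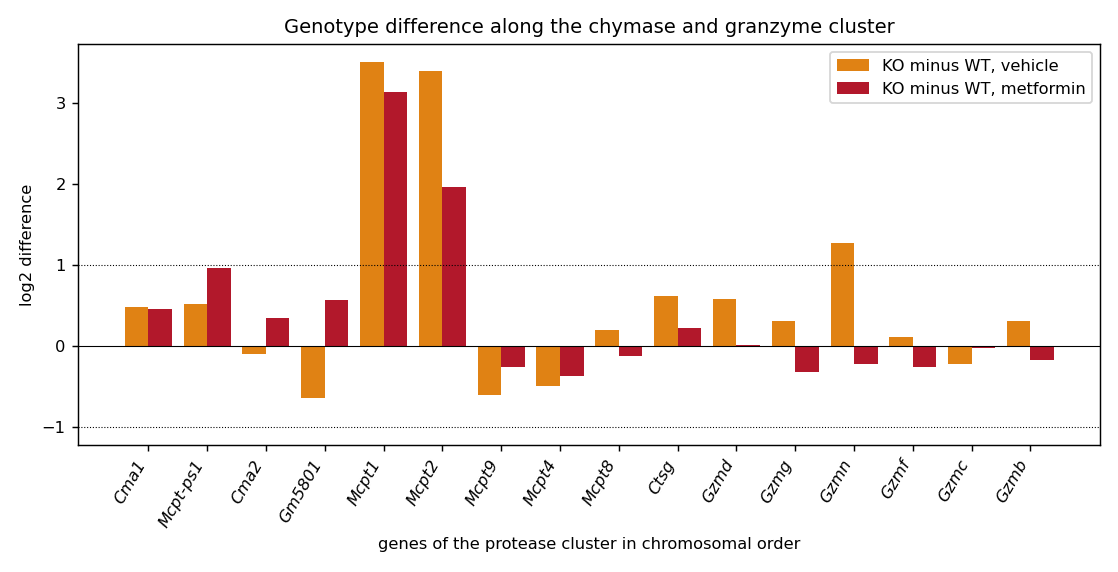
Log2 difference of KO from WT (vertical axis) under vehicle and under metformin (bar colours) for the 16 measured genes from Cma1 to Gzmb in chromosomal order (horizontal axis), with dotted lines at 2-fold and 1 array per group. Bars show differences as measured, also where a value is under the olfactory level. The adjacent genes Mcpt1 (at least 2.29 and 2.19) and Mcpt2 (at least 3.17, and 1.96) stand above the rest.

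Of the IgE receptor subunits, Fcer1a was under the olfactory level on every array and Ms4a2 was short of 2-fold between genotypes. Fcer1a, the IgE-binding alpha subunit, had 2.84 in WT with vehicle, 3.24 in WT with metformin, 3.69 in KO with vehicle and 3.48 in KO with metformin, all under the olfactory level, so its order across arrays is not read. Ms4a2, the signal-amplifying beta subunit, had 5.36 in WT with vehicle, 4.33 in WT with metformin, 4.84 in KO with vehicle and 4.83 in KO with metformin. The WT vehicle value was highest and the WT metformin value lowest, at 0.02 above the olfactory level, and the KO values lay between them. The KO minus WT difference was therefore -0.52 under vehicle and 0.50 under metformin. Fcer1g, the shared gamma chain that many blood cells make, was short of 2-fold in both comparisons, with differences of 0.31 and 0.25. Of the 7 measured genes of the receptor's signalling chain, from Fcer1g and the kinase Syk to the adaptors Lat and Lat2, 0 differed by 2-fold between genotypes under vehicle or metformin.

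Kit went the other way from Mcpt1, Mcpt2, Tpsb2 and Cpa3. It had 8.75 in WT with vehicle, 7.92 in WT with metformin, 7.14 in KO with vehicle and 7.62 in KO with metformin, so both KO values lay below both WT values. KO was 3.06-fold lower than WT under vehicle (-1.61) and 1.24-fold lower under metformin (-0.31). The gap from the lowest WT to the highest KO value was the same 0.31, smaller than the 0.83 between the WT arrays. Its ligand gene Kitl had 8.23, 7.77, 7.84 and 7.84 in the same order of arrays, with differences of -0.39 and 0.08.

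Genes of interstitial cells of Cajal were read beside Kit because those cells make it in the muscle coat. All 5 measured (the chloride channel Ano1, the transcription factor Etv1, Gpr20, the gap junction gene Gja1 and Cd34, which vessels also make) were lower in KO than in WT under vehicle, with a median of -0.63 against 0.03 over all genes, and 1 of them, Etv1 (-1.07), passed 2-fold. Brighter genes were lower as a whole, with a median of -0.22 over the genes whose mean reached 5.03. A list of 5 genes of the acid-secreting glands (Atp4a, Atp4b, Cblif, Kcne2 and Slc26a9) was lower in 5 of 5 (median -0.42). Under metformin the median difference of the genes of interstitial cells of Cajal was 0.06. Within WT, metformin minus vehicle was below 0 for all 5 of these (median -0.54). It was also below 0 for Kit (-0.83) and for all 5 gland genes (median -0.24). In KO, all 5 of each list were above 0. Smooth muscle genes were lower in KO under vehicle in 6 of 7 (median -1.01) and under metformin in 7 of 7 (median -0.45). Under vehicle 4 of the 7, Acta2 (-1.26), Cnn1 (-1.47), Des (-1.36) and Myocd (-1.01), were at least 2-fold lower, as were 4.55% of all genes. Under metformin 0 of the 7 were, against 0.343% of all genes. The log2 of the summed level of the 5 genes was 9.27 in WT with vehicle, 8.82 in WT with metformin, 8.66 in KO with vehicle and 9.0 in KO with metformin, and that of the 7 smooth muscle genes was 13.79, 13.88, 12.88 and 13.42. The part that these cells had in the Kit values was not tested. Melanocyte genes, a further Kit lineage, stood above the olfactory level in 1 of 4 (Pmel) on every array.

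**Figure D3:**
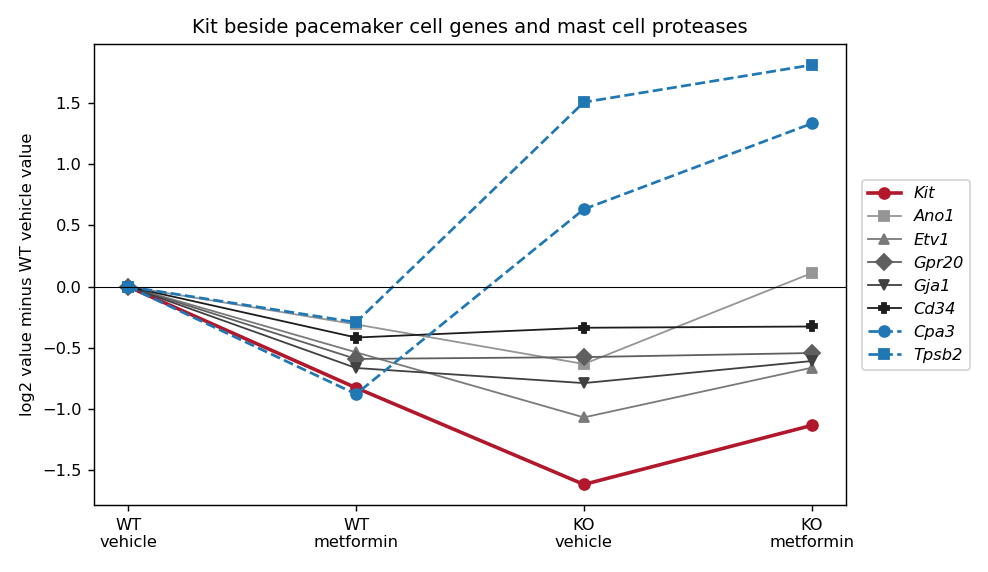
Log2 value minus the WT vehicle value (vertical axis) on the 4 arrays (horizontal axis) for Kit, 5 genes of interstitial cells of Cajal, and the proteases Cpa3 and Tpsb2, with lines only to guide the eye between arrays of different mice. Kit is lowest on the KO vehicle array at 1.61 below WT vehicle, where Tpsb2 is 1.5 above it.

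Across the 9 genes, the comparison of genotypes under vehicle had 3 higher by 2-fold or more (Mcpt1, Mcpt2 and Tpsb2) and 1 lower (Kit). Over all 22180 genes, 2.69% were higher and 4.55% lower by that size. The comparison under metformin had 4 higher (the same 3 and Cpa3) and 0 lower, against 0.631% and 0.343% of all genes. The median over the 9 genes was 0.63 under vehicle and 0.50 under metformin, with medians over all genes of 0.03 and 0.00. These genes were chosen with results of these arrays known, so the counts describe them and test nothing.

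The vehicle and the metformin comparison of genotypes share no array. Of the 597 genes at least 2-fold higher in KO under vehicle, 35 (5.86%) were so under metformin too, which was 25.0% of the 140 genes higher under metformin. Both KO values were above both WT values for 6 of the 9 genes, as for 18.3% of all genes, and below them for 2 (Mcpt4 and Kit), as for 16.8%. Over the 7 genes above the olfactory level on at least 1 array, leaving out Fcer1a and Mcpt4, these counts were 5 and 1 (Kit). Mcpt1 met that condition only through its KO arrays, and the share of all genes under the same condition was not counted. With a gap of at least 1 between the genotypes, the count was 3 of the 9 (Mcpt1, Mcpt2 and Tpsb2) and 0.0947% of all genes. That share is 21 genes, of which 19 kept a gap of 1 with values under the olfactory level raised to it, the same 3 members among them. The gap was at least 2.06 for Mcpt1, 1.96 for Mcpt2 and 1.5 for Tpsb2. It was 3.08 for Chil4, a chitinase-like protein of type 2 immunity. Most of the rest were genes of antibody-making cells, immunoglobulin segments together with Jchain (at least 1.77), which joins antibody units, and Ighm (2.06), the IgM heavy chain. The others, all named after their values were seen, were the microRNA gene Mir3095 (1.29), the epithelial antibody transporter Pigr (1.16), the clock genes Per3 (1.35) and Ciart (1.09), the vesicle gene Rab3b (1.22) and the skin gene Kprp (at least 0.84).

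**Figure D4:**
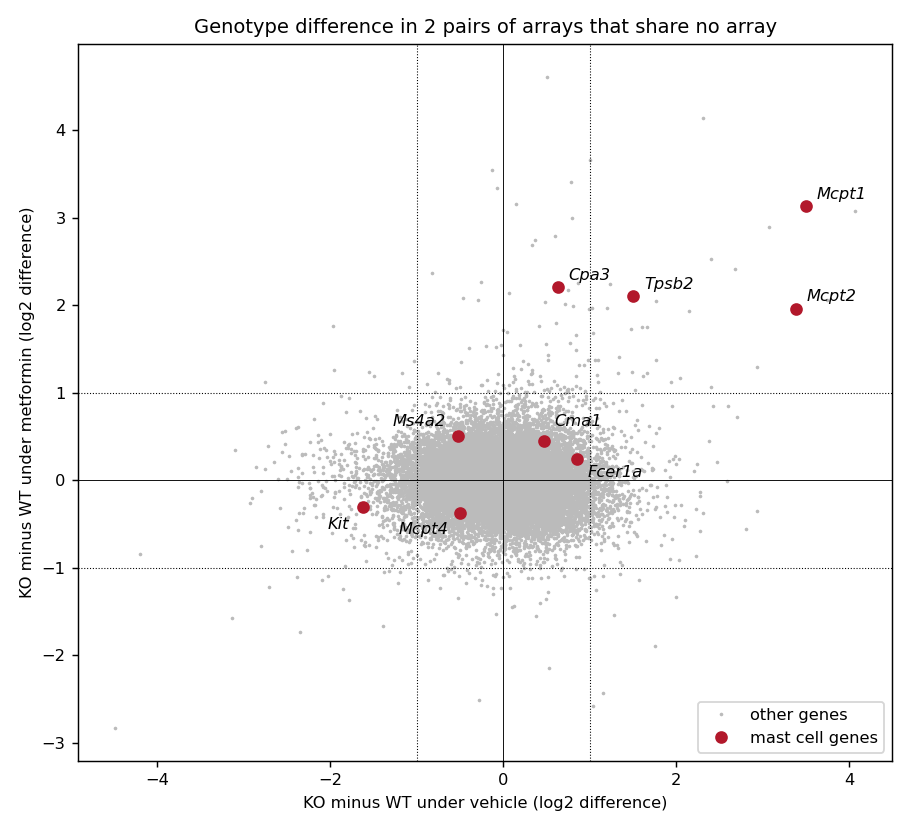
Log2 difference of KO from WT under metformin (vertical axis) against that under vehicle (horizontal axis) for all 22180 genes (grey) and the 9 mast cell genes (red), with dotted lines at 2-fold and values under the olfactory level plotted as measured. Mcpt1, Mcpt2 and Tpsb2 pass both lines on the high side, Cpa3 passes the metformin line at 2.21, and Kit passes the low vehicle line at -1.61.

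Fewer of the 9 genes passed 2-fold with metformin than between genotypes. In WT, Mcpt2 was the 1 gene higher by 2-fold (1.12) and Ms4a2 the 1 lower (-1.03), against 0.667% and 0.676% of all genes. Mcpt2 started 0.22 below the olfactory level and Ms4a2 ended 0.02 above it. Cpa3 (-0.88) and Kit (-0.83) came next, at 1.84-fold and 1.77-fold lower with metformin. In KO, 0 of 9 were higher and 0 of 9 lower by 2-fold, against 1.53% and 0.983% of all genes, with Cpa3 (0.70) and Kit (0.48) the highest and Mcpt2 (-0.30) the lowest. The median over the 9 genes was -0.09 in WT and 0.05 in KO. The difference of responses, KO minus WT, was at least 1 in size for 4 of 9, Cpa3 (1.58), Kit (1.31), Ms4a2 (1.02) and Mcpt2 (-1.42), as for 11.8% of all genes. It was higher in KO for 3 of these (6.56% of all genes) and lower for 1 (5.28%). The 2 responses had opposite signs for 6 of the 9 genes, as for 61.6% of all genes. On the KO metformin array, where Cpa3 and Tpsb2 were highest, genes of squamous epithelium were high too. Of the 4 measured, 3 were at least 2-fold higher than on the KO vehicle array and all 4 stood above the olfactory level, and the log2 of their summed level was 9.75 against 6.09 (WT vehicle), 6.48 (WT metformin) and 6.69 (KO vehicle). Their part in the protease values was not tested. On the WT vehicle, WT metformin and KO vehicle arrays, 1, 3 and 2 of the 4 stood above the olfactory level.

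Among the other mast cell genes listed, Tpsab1 and Csf2rb under metformin and Il3ra under vehicle were those past 2-fold between genotypes against the olfactory level. Of 7 further proteases listed (Tpsab1, Tpsg1, Mcpt9, Mcpt8, Cma2, Ctsg and Prss34), 1 was above the olfactory level on any array, Tpsab1, and it was also the 1 past 2-fold under metformin. Mcpt8 and Prss34 mark basophils, and lay at 3.0 to 3.19 and 3.61 to 3.79. Among 7 granule and amine genes, 0 passed 2-fold between genotypes. Srgn, the proteoglycan core that packs the proteases, had 6.77, 6.80, 6.78 and 6.66 in the array order used above. Hdc, which makes histamine, and Slc18a2, which loads it, differed by -0.70 and -0.93 under vehicle and by 0.00 and -0.08 under metformin, and enterochromaffin-like cells of the corpus make both. Tph1, the serotonin synthesis gene of mucosal mast cells and enterochromaffin cells, was higher in KO by 0.38 under vehicle and by at least 0.68 under metformin.

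Of 4 lipid mediator genes and 5 transcription factors, 0 passed 2-fold between genotypes. Gata2 had differences of 0.00 under vehicle and 0.35 under metformin, and Mitf of -0.19 and 0.51. Of 9 surface receptors measured, 1 was higher and 1 lower by 2-fold under vehicle, and 1 higher under metformin, before the olfactory level is taken into account. Il3ra, the interleukin 3 receptor alpha chain, was higher under vehicle (1.47, from 4.96 to 6.43) and differed by 0.32 under metformin. Csf2rb, the beta chain shared by receptors for interleukin 3 and GM-CSF, had 3.02 on the KO vehicle array, under the olfactory level, so its measured difference under vehicle (-1.55) holds as a fall of at least 0.09 only, short of 2-fold. Under metformin it was higher by at least 1.20. Its close relative Csf2rb2 differed by 0.78 and 0.50. Mrgprb2, the receptor for basic peptides on connective tissue mast cells, was under the olfactory level on all arrays (2.92 to 3.30). Of 12 genes for the supply and homing of mast cells, among them Kitl, Il33, Tgfb1, Itgb6 and Itgae, 0 passed 2-fold between genotypes. Tgfb1, Itgb6 (part of an integrin that frees active TGF-beta) and Itgae (a mucosal mast cell integrin) are named here because TGF-beta turns on Mcpt1 in cultured mast cells. Tgfb1 and Itgb6 differed by -0.31 and -0.48 under vehicle and by 0.24 and 0.10 under metformin. Itgae was under the olfactory level on every array, so its differences are not read.

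Profiles over the 4 arrays, each centred on its own mean, were compared by their root mean square difference among genes whose mean reached 5.03, the median over genes, which that of Mcpt1 (4.78) does not. Mcpt2 reached it only through the KO arrays (WT mean 4.42, KO mean 7.10). All neighbours below come from this same set, in which genes high in KO alone can pass. Nearest to Cpa3 was Prnd, which encodes a prion-like protein, at 0.11, then Lce3c (0.24), Tpsb2 (0.31), Tef (0.33) and Dbp (0.33). Nearest to Tpsb2 were Per3 (0.21), Prnd (0.28), Cpa3 (0.31), Rab3b (0.32) and Nccrp1 (0.32). Cpa3 and Tpsb2 thus appear in each other's lists, with 3 and 2 immunoglobulin segments or clone-named genes set aside before them. Nearest to Mcpt2 were Ighm (0.31), Chil4 (0.47), Per3 (0.63), Erdr1 (0.67) and Pigr (0.68). Nearest to Kit were Vwa5a (0.04), the prostaglandin synthase Ptgs2 (0.05), Aldh6a1 (0.06), Ror1 (0.06) and the parietal cell water channel Aqp4 (0.07). These are likenesses over 4 arrays and carry no p-value.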

How the data were processed

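Per the labels' protocols, biotinylated cDNA was made from corpus total RNA with an Affymetrix WT Plus reagent kit. The log2 expression values were deposited after RMA, with Partek also named, per the submitters' processing notes. Values ran from 0.77 to 14.02, which fits a log2 scale. Versions and settings are in neither the labels nor the notes. The platform annotation gives 1 gene to 23521 of 41345 probe sets and several to 1814, and 16010 are unnamed here. Updating symbols by RefSeq GRCm38.p6 found 23328. The probe set with the highest mean stood for each of 22180 genes. No filter on level was used for the counts, because some members would pass it only through the KO arrays.

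Differences are log2 values of 1 array minus another, and a gene was counted at an absolute difference of 1 or more. With 1 array per group there is no test, and precision is limited by having 4 arrays. The counting and profile steps were checked on simulated arrays. The members, the 17 related lists and the naming rule were chosen with earlier results of these data known. Named are all members and the 5 nearest profiles of Cpa3, Mcpt2, Tpsb2 and Kit (predicted, clone-named, small RNA and immunoglobulin segment genes set aside). Listed genes could be named where they pass 2-fold or are among the 3 highest or lowest of a list. Not every such gene is named. Chromosome neighbours, the 21 genes with a gap of 1, Srgn, Fcer1g, Gata2, Mrgprb2 and other listed genes given for their role were named after their values were seen. Of 117 listed genes, 7 had no probe set of their own gene alone. Alternatives were median centring, cyclic loess (limma 3.58.1, R 4.3.3), averaging a gene's probe sets, filters at the median and the 75th percentile, a 1.5-fold rule, means for medians, Pearson correlation for profile distance and, chosen after seeing the data, a floor at the olfactory level. Promoters were aligned with biopython 1.88 (global, match 1), under Python 3.11.15 with numpy 2.4.6 and pandas 2.3.3.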

Additional observations from a re-analysis of the deposited data

Results flagged for a closer look

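In the values as measured, the metformin response was of opposite sign in WT and KO, and differed by at least 1 on the log2 scale, for 3 of the 9 mast cell genes and 7 of the listed genes read beside them. With 1 array per group this difference was not tested. A difference of responses of that size was seen in 11.8% of all genes, and responses of opposite sign in 61.6%. The share of all genes with both was not counted and cannot exceed 11.8%. KO response minus WT response was 1.58 for Cpa3, 1.31 for Kit and -1.42 for Mcpt2 (-1.21 with values under the olfactory level raised to it). Among the related genes it was 2.79 for Csf2rb (1.29 with that floor), -1.15 for Il3ra and 1.10 for the heparin synthesis gene Ndst2. It was 1.05 for Ano1, -1.69 for Ighm, 3.67 for the squamous keratin Krt4 (2.54 with that floor) and 1.33 for the parietal cell chloride channel Slc26a9. Krt4 was under the olfactory level on both WT arrays, so the sign of its WT response is not read. Each WT and KO response shares no array with the other.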

How the results depend on the processing

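No paired analysis was possible because each group has 1 array. Each member has 1 probe set, so averaging probe sets could not move a member, and the filters only drop members. Of the 135 member differences under median centring, cyclic loess and the olfactory floor, 134 kept their side of 2-fold. The exception was Mcpt2 in the WT response, 0.90 with a floor at the olfactory level, which left 0 members higher in that response. In the genotype comparisons, the counts of 3 and 4 higher and of 1 and 0 lower were the same under those settings. With the floor, Mcpt4, under it on all arrays, had 0.40 under vehicle and -0.04 under metformin (as deposited -0.50 and -0.37). A 1.5-fold rule gave 3 lower in the WT response, 1 higher in the KO response, 5 higher under vehicle and 2 with a lower difference of responses. The shares of all genes at 1.5-fold were 5.91%, 7.68%, 12.5% and 17.1% in that order. The filter at the median kept 4 members (Cpa3, Tpsb2, Kit and, only through its KO values, Mcpt2, so these medians are partly chosen by the difference) and gave 0 lower in the WT response, with medians of -0.56 (WT response), 0.39 (KO response), 1.07 (vehicle), 2.03 (metformin) and 0.95 (difference of responses). The filter at the 75th percentile kept 2 (Cpa3 and Kit) and gave 0 higher and 0 lower in the WT response, 0 higher under vehicle, 1 higher under metformin and 0 with a lower difference of responses, with medians of -0.85, 0.59, -0.49, 0.95 and 1.44 in the same order. Medians over all genes kept were -0.14, 0.11, -0.22, 0.02 and 0.26 at the median filter. At the 75th percentile they were -0.18, 0.16, -0.30, 0.03 and 0.35. The share of kept genes lower in the WT response was 0.929% at the median filter and 1.06% at the 75th percentile. At the latter, 1.19% were higher in the WT response, 2.54% higher under vehicle and 0.325% higher under metformin, and 3.72% had a lower difference of responses. Fewer genes counted is the construction of both filters. The mean over members under metformin was 1.10, and cyclic loess gave a median difference of responses of 0.42; the cause was not tested. By Pearson correlation among 893 genes with an SD of at least 0.5, Tpsb2 came 10th from Cpa3, where it was 6th by distance. By the same measure Cpa3 came 29th from Tpsb2 (5th by distance) and Tpsb2 45th from Mcpt2 (11th by distance). Under vehicle, the share of all genes counted lower moved from 4.55% to 6.84% with median centring and to 3.31% with cyclic loess, beside 2.69%, 1.55% and 2.28% higher. Centring moved the median of all genes under vehicle from 0.03 to -0.12.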

Other observations

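Of the other immune cells whose markers were read beside the mast cell genes, plasma cells and T cells had genes past 2-fold between genotypes. Eosinophil and basophil genes stood above the olfactory level in 1 of 6 (Siglecf) on every array, with medians of 0.24 under vehicle and -0.05 under metformin. Macrophage genes stood above it in 5 of 5 and had medians of -0.02 and -0.15. T cell genes had medians of 0.54 and -0.08. The vehicle median is the value of Cd8a, which, like Cd3d, was under the olfactory level on every array. Cd4, which macrophages and other cells can also make, was lower in KO under vehicle (-1.47) and lower with metformin in WT (-1.10). Genes of cytotoxic cells had medians of 0.33 and -0.11, and the granzyme genes Gzma, Gzmb and Gzmc did not exceed 3.49 on any array. Plasma cell genes were split, with Jchain and Ighm far higher in KO under vehicle (at least 2.93, and 3.75) and Derl3 (-0.49) and Xbp1 (0.00) not. Mzb1 was under the olfactory level on both vehicle arrays, so its difference under vehicle is not read.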
